A study of Homo sapiens with 8 samples.

Results

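The genes described here act in the unfolded protein response and in the amino acid stress response. They were taken as a list of 33 genes by their roles, drawn up with earlier results of these data known: 12 chaperones and folding enzymes of the endoplasmic reticulum (ER), 3 genes of ER-associated degradation, 5 stress sensors and transcription factors, and 13 targets of the transcription factor ATF4, of which 5 make amino acids and 8 are regulators. Every probe of these genes was taken, which gave 35 probes among the 22184 on the array, and all 33 genes were present among 16578 named genes. A probe was tested where it was detected above the negative controls on both arrays of at least 1 group. This left 31 probes of 30 genes.

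The unfolded protein response starts when unfolded protein collects in the ER. Its sensors are EIF2AK3 (PERK), ERN1 (IRE1) and ATF6. ATF6 is cut and moves to the nucleus, ERN1 splices the XBP1 messenger, and both routes raise chaperone transcription. EIF2AK3 phosphorylates eIF2, which slows general translation and favours translation of ATF4. Other eIF2 kinases, such as the amino acid sensor EIF2AK4 (GCN2), reach ATF4 without ER stress, so its targets can move apart from the chaperones. Signal from an array reports transcript level and not splicing, cleavage or phosphorylation.

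Cells of the lines Caco2 and WM115, sorted as AC133 high or AC133 negative, gave the RNA for 8 arrays. Caco2 is a human colorectal adenocarcinoma line, and its cells were clones that carry a lentiviral reporter, green fluorescent protein under the mouse Melk promoter. WM115 is a human melanoma line without that reporter, grown in another medium. In all groups cells were lifted with trypsin and EDTA and stained for AC133, an epitope on CD133, which PROM1 encodes. The brightest 10% formed the high group, and cells without staining formed the negative group. Each line was sorted 2 times, and the high and the negative cells of a line share a numbered sort, which gave 4 groups of 2 arrays. The 2 Caco2 clones in use were not assigned to sorts in the labels. Line, medium and reporter differ together between Caco2 and WM115 and cannot be told apart.

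Promoters were read for 29 of the 33 genes from the RefSeq table of GRCh38.p14, whose windows hold 250 bases before and 50 bases after each start. PDIA3, PSPH, SHMT2 and NUPR1 had no entry. The ER stress response element was searched as CCAAT, 9 bases of any kind and CCACG on either strand. It is the textbook site for ATF6 with the CCAAT-binding factor NF-Y. It was found in 7 of the 29 genes (24.1%), against 25 of all 27305 genes with a window (0.0916%). These were HSPA5, HSP90B1, PDIA6, CALR, CANX, CRELD2 and XBP1. The genes were listed for roles in the response that this site serves. The contrast with all genes was therefore largely set by the choice of genes and was not tested. The core of the C/EBP-ATF composite element, TGATGCAA on either strand, through which ATF4 acts, was in CHAC1 and HERPUD1 (6.9% of the 29, against 1.08% of all genes). The unfolded protein response element, TGACGTGG on either strand, was in 0 of the 29 and in 0.927% of all genes. No sites of different motifs overlapped in these windows. A match describes letters in the window and does not show binding. A gene without a match may still hold the element with other letters or outside the window.

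The bases before the start are shown for a chaperone and an ATF4 target that stood far apart between the WM115 sorts, HSPA5 and CHAC1, and for XBP1, which differed most between the lines in the upward direction. Capitals mark the fixed letters of the motif. In CHAC1 the motif lies on the other strand and reads as its reverse complement.
HSPA5, chr9:125241344-125241593, minus strand: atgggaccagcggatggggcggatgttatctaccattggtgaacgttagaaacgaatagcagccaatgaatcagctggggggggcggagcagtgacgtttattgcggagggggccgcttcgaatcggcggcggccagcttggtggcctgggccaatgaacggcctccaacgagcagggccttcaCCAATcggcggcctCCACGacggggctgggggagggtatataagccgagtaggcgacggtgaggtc
XBP1, chr22:28800570-28800819, minus strand: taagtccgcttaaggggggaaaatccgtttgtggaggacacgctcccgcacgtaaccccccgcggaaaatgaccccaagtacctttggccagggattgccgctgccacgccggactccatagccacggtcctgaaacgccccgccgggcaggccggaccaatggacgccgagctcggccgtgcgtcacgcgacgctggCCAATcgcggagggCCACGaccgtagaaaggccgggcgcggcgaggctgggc
CHAC1, chr15:40953221-40953470, plus strand: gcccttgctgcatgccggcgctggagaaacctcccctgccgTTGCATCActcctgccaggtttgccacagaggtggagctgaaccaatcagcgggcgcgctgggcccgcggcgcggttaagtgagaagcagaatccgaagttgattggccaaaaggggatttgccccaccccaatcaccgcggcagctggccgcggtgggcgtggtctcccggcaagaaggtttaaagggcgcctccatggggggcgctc

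The elements of the other chaperones are shown for comparison of the spacer, which is in lower case and differs between all of them while the outer letters are fixed by the search. HSP90B1 holds 2 of them.
HSP90B1, chr12:103930216-103930234, plus strand: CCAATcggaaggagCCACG
HSP90B1, chr12:103930321-103930339, minus strand: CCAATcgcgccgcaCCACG
PDIA6, chr2:10812853-10812871, minus strand: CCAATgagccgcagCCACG
CALR, chr19:12938384-12938402, minus strand: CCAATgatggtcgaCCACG
CANX, chr5:179698778-179698796, plus strand: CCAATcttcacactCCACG
CRELD2, chr22:49918554-49918572, minus strand: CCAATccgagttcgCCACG

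The 8 arrays were on 1 slide. Between 53.7% and 59.2% of probes were detected per array, the median intensity was 49.5 to 58.8 units, and probes had a median of 41 to 42 beads. Caco2 had 8 of 9 intestinal epithelial markers detected on every array, with CDX1 never detected, against 1 to 2 of 9 in WM115. Of 7 melanocyte markers, 1 to 2 were detected in Caco2, against 6 to 7 in WM115. PROM1 was 18.1-fold higher in the AC133 high cells of Caco2 (limma adjusted p = 0.00041), and 12.1-fold higher in those of WM115 (0.000691). The WM115 negative array of sort 2 stood apart: 175 probes were over 2-fold above and 37 over 2-fold below all other WM115 arrays, against at most 18 above and 49 below on any other array within its line. The collagen gene COL1A1 had a log2 signal of 8.28 there and 4.38 to 4.48 on the other WM115 arrays. Of 4 fibroblast markers, 1 to 2 were detected in Caco2 and 2 to 3 in WM115, COL1A2 was never detected in either line, and their summed intensity was 171.4 to 209.7 units in Caco2 and 984.7 to 2679 units in WM115. Their part in the results was not tested. Without this array 14 of the 30 tested members passed between the lines, against 13 with it, and all members except HSPA5 kept their direction. For each comparison that uses it, values or counts of changed signs without it follow.

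Of the 33 genes, PDIA3 was detected on no array, NUPR1 on 2 and SESN2 on 4, never on both arrays of a group. A second PSAT1 probe was detected on no array. SEL1L and CHAC1 were detected on 7 of the 8 arrays, and every other tested gene on all 8. ATF4 had 2 tested probes, and the brighter stands for the gene. All values are log2 signal after background correction and quantile normalization, so they compare arrays for the same probe and not genes with each other. An offset of 16 units added in the correction makes the fold changes of dim probes too small.

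**Figure D1:**
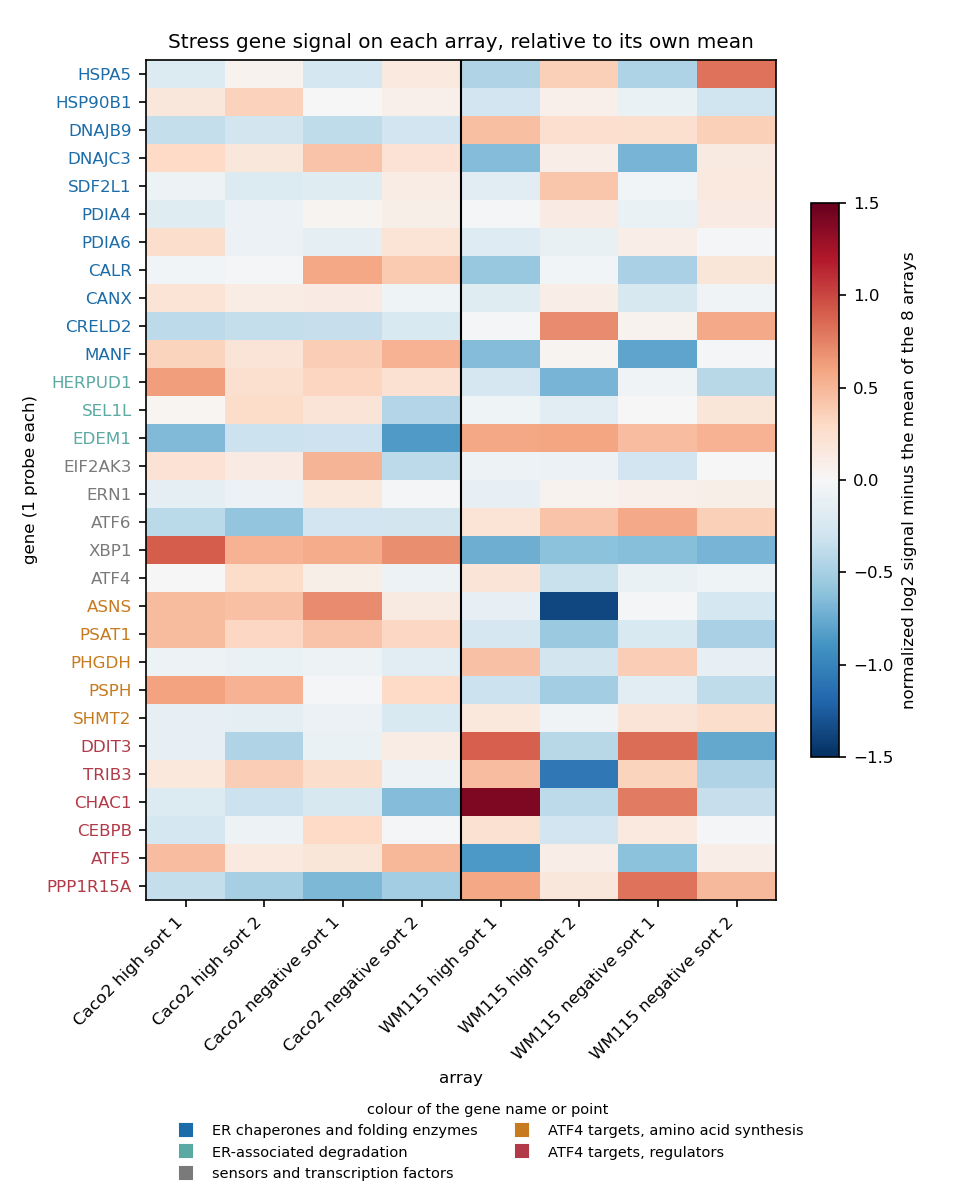
Normalized log2 signal of the 30 tested genes (rows, 1 probe each, names coloured by role) on the 8 arrays (columns, Caco2 left of the line and WM115 right), minus the gene's mean over the 8 arrays. XBP1 is above its mean on all Caco2 arrays, and within WM115 the arrays of sort 2 differ from those of sort 1 for HSPA5, DDIT3, TRIB3 and CHAC1.

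Caco2 was set against WM115 over 4 arrays each. The high and negative arrays of a sort counted as separate, so p-values are too small for genes whose arrays move together by sort. In RNA of many cells, fewer cells that express a gene and less of its RNA per cell cannot be told apart. XBP1, the factor made active by ERN1 splicing, was 2.54-fold higher in Caco2, and 3 amino acid synthesis genes with the degradation gene HERPUD1 and the chaperone-like MANF were 1.62-fold to 1.85-fold higher. EDEM1, PPP1R15A and the sensor ATF6 were 1.72-fold to 2.10-fold lower. In all, 13 of the 30 tested genes passed an adjusted p of 0.05 (43.3%), 7 higher and 6 lower, against 60.3% of all 11214 genes tested, of which 30.4% were higher and 29.9% lower. The median difference of the 30 genes was 0.07 log2 units and that of all genes 0.02. Arrays of the lines did not overlap for 14 of the 30 (46.7%), against 57.1% of all genes. Both shares were below those of all genes, and the lists moved in no common direction between the lines.

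Among the chaperones and folding enzymes, 3 of 11 tested genes passed the test (27.3%, against 60.3% of all genes), 1 higher and 2 lower. The median difference was 0.12 log2 units. MANF, a secreted ER protein that binds the chaperone HSPA5, had 11.36 and 11.21 in Caco2 high cells and 11.39 and 11.54 in Caco2 negative cells, against 10.37 and 11.06 in WM115 high cells and 10.23 and 10.99 in WM115 negative cells (sorts 1 and 2 in that order, here and below). All Caco2 arrays were above all WM115 arrays, with the arrays of WM115 sort 2 closest, and the difference was 0.71 log2 units (SE 0.21, adjusted p = 0.0167).

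CRELD2, an ER stress gene thought to act in disulphide exchange, had 9.24 and 9.28 in Caco2 high cells and 9.29 and 9.41 in Caco2 negative cells, against 9.62 and 10.35 in WM115 high cells and 9.68 and 10.20 in WM115 negative cells. It was 1.58-fold lower in Caco2 (adjusted p = 0.0142) with no overlap. DNAJB9, a co-chaperone of HSPA5 that represses ERN1, had 7.66 and 7.74 in Caco2 high cells and 7.64 and 7.73 in Caco2 negative cells, against 8.48 and 8.28 in WM115 high cells and 8.26 and 8.38 in WM115 negative cells. Its arrays were tight within each line, 7.70 ± 0.05 in Caco2 and 8.35 ± 0.10 in WM115 (SD, n = 4), and it was 1.57-fold lower in Caco2 (adjusted p = 0.000865).

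The other 8 chaperones did not pass the test. HSPA5 (BiP), the main ER chaperone and a brake on the sensors, averaged 8.19 ± 0.20 in Caco2 and 8.32 ± 0.63 in WM115 (SD, n = 4), a difference of -0.14 log2 units with a 95% interval of -0.80 to 0.53. Without the WM115 negative array of sort 2 the direction turned, to 0.18 (adjusted p = 0.516). Calreticulin, CALR, a lectin that holds glycoproteins for folding, differed by 0.45 log2 units (adjusted p = 0.059), and DNAJC3, a co-chaperone that inhibits EIF2AK3, by 0.56 (adjusted p = 0.0573). With sort within line as a block, the adjusted p was 0.010 for CALR and 0.0035 for DNAJC3. The block takes the spread between the sorts of a line out of the error. These values are therefore too small where the sorts differ, as they did in WM115. Without the WM115 negative array of sort 2 the differences were 0.62 for CALR and 0.75 for DNAJC3. The ER member of the HSP90 family, HSP90B1, the disulphide isomerases PDIA4 and PDIA6, the membrane lectin CANX and SDF2L1, a partner of HSPA5 co-chaperones, differed by -0.18 to 0.30 log2 units. None of these 5 intervals reached a 2-fold difference.

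In ER-associated degradation, HERPUD1 and EDEM1 passed in opposite directions. HERPUD1, which organizes the ubiquitin ligase complex at the ER membrane, had 9.71 and 9.33 in Caco2 high cells and 9.41 and 9.32 in Caco2 negative cells, against 8.84 and 8.39 in WM115 high cells and 9.03 and 8.68 in WM115 negative cells. The lines did not overlap, and HERPUD1 was 1.63-fold higher in Caco2 (adjusted p = 0.00422). EDEM1, a lectin that hands misfolded glycoproteins to degradation, had 7.25 and 7.59 in Caco2 high cells and 7.60 and 7.06 in Caco2 negative cells, against 8.49 and 8.50 in WM115 high cells and 8.37 and 8.43 in WM115 negative cells. It was 2.10-fold lower in Caco2 (log2 difference -1.07, SE 0.15, adjusted p = 0.000307). SEL1L, an adaptor of the same ligase complex, differed by 0.03 log2 units (95% interval -0.33 to 0.39), with a signal close to the negative controls.

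Of the sensors and transcription factors, XBP1 and ATF6 passed and EIF2AK3, ERN1 and ATF4 did not. XBP1 had 10.20 and 9.82 in Caco2 high cells and 9.85 and 9.99 in Caco2 negative cells, against 8.56 and 8.68 in WM115 high cells and 8.65 and 8.59 in WM115 negative cells. Its difference of 1.34 log2 units (SE 0.12, adjusted p = 2.46e-05) was the largest in size among the 30 genes, and the probe does not tell spliced from unspliced XBP1. ATF6 had 8.04 and 7.85 in Caco2 high cells and 8.16 and 8.17 in Caco2 negative cells, against 8.64 and 8.87 in WM115 high cells and 9.01 and 8.81 in WM115 negative cells. It was 1.72-fold lower in Caco2 (adjusted p = 0.000473), so that XBP1 and ATF6, which act on overlapping chaperone genes, lay in opposite directions.

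EIF2AK3 differed by 0.23 log2 units (95% interval -0.21 to 0.67) and ERN1 by -0.05 (-0.29 to 0.20). ERN1 was dim on every array, with intensities of 47.1 to 58.8 units against a mean background of 33.8 to 35.5. The offset makes its differences too small, so its narrow interval does not show equal levels. The brighter ATF4 probe had 12.54 ± 0.15 in Caco2 and 12.38 ± 0.21 in WM115 (SD, n = 4), a difference of 0.15 log2 units (adjusted p = 0.393). The dimmer ATF4 probe pointed the other way, 6.52 ± 0.24 in Caco2 and 7.28 ± 0.67 in WM115, a difference of -0.76 (adjusted p = 0.066). Without the WM115 negative array of sort 2 its difference was -1.16. With sort as a block, which leaves out the spread between sorts, its adjusted p was 0.019. The probes disagree, so the ATF4 level is uncertain between the lines.

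The ATF4 targets that make amino acids gave 4 calls among 5 tested genes, 3 higher and 1 lower in Caco2, when 60.3% of all genes were called. A share of 5 genes is coarse, and the lower one, SHMT2, lost its call in most alternatives (below). ASNS, which makes asparagine, had 10.08 and 10.04 in Caco2 high cells and 10.32 and 9.74 in Caco2 negative cells, against 9.48 and 8.24 in WM115 high cells and 9.58 and 9.34 in WM115 negative cells. It was 1.85-fold higher in Caco2 (adjusted p = 0.0171), and the WM115 high array of sort 2 lay 1.10 log2 units below the negative array of the same sort.

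PSAT1 and PSPH catalyse successive steps of serine synthesis after PHGDH. PSAT1 had 9.12 and 8.96 in Caco2 high cells and 9.07 and 8.95 in Caco2 negative cells, against 8.39 and 8.09 in WM115 high cells and 8.41 and 8.15 in WM115 negative cells. It was 1.70-fold higher in Caco2 (adjusted p = 0.0008). PSPH had 9.51 and 9.43 in Caco2 high cells and 8.88 and 9.21 in Caco2 negative cells, against 8.58 and 8.39 in WM115 high cells and 8.74 and 8.52 in WM115 negative cells. It was 1.62-fold higher (adjusted p = 0.00135), and neither gene overlapped between the lines.

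PHGDH, the first step of the same pathway, did not pass, with 11.15 ± 0.04 in Caco2 and 11.36 ± 0.36 in WM115 (SD, n = 4) and a difference of -0.21 log2 units (adjusted p = 0.355). SHMT2, which turns serine into glycine in mitochondria, was 1.22-fold lower in Caco2 with an adjusted p of 0.0472. That call was lost in 13 of 19 alternatives, among them the block (adjusted p = 0.057) and the fit without the WM115 negative array of sort 2 (adjusted p = 0.0909).

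Of the 8 regulators among the ATF4 targets, 6 were tested and 2 passed (33.3%, against 60.3% of all genes). PPP1R15A (GADD34), the phosphatase subunit that reverses eIF2 phosphorylation, had 9.56 and 9.42 in Caco2 high cells and 9.24 and 9.39 in Caco2 negative cells, against 10.50 and 10.09 in WM115 high cells and 10.72 and 10.40 in WM115 negative cells. It was 2.03-fold lower in Caco2 (adjusted p = 0.00026) with no overlap. ATF5, a transcription factor translated like ATF4, had 8.50 and 8.18 in Caco2 high cells and 8.22 and 8.54 in Caco2 negative cells, against 7.17 and 8.14 in WM115 high cells and 7.42 and 8.13 in WM115 negative cells. It was 1.56-fold higher in Caco2 (adjusted p = 0.0492), a call lost in 11 of 19 alternatives.

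DDIT3 (CHOP), TRIB3 and CHAC1 had wide intervals, with the WM115 sorts far apart. DDIT3, a transcription factor that promotes cell death, averaged 7.35 ± 0.23 in Caco2 and 7.62 ± 0.85 in WM115 (SD, n = 4; difference -0.28, 95% interval -1.14 to 0.59). Without the WM115 negative array of sort 2 its difference was -0.68 (adjusted p = 0.0897). TRIB3, a pseudokinase that restrains ATF4, averaged 9.41 ± 0.19 in Caco2 and 9.05 ± 0.72 in WM115, a difference of 0.36 with that array and 0.16 without it (adjusted p = 0.371 and 0.715). CHAC1, which breaks down glutathione, averaged 4.85 ± 0.20 in Caco2 and 5.57 ± 0.88 in WM115. Its adjusted p was 0.144, and 0.0059 with sort as a block, which leaves out the spread between sorts. Its Caco2 signal lay close to the negative controls. CEBPB, a C/EBP factor, differed by -0.03 log2 units (95% interval -0.38 to 0.31).

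**Figure D2:**
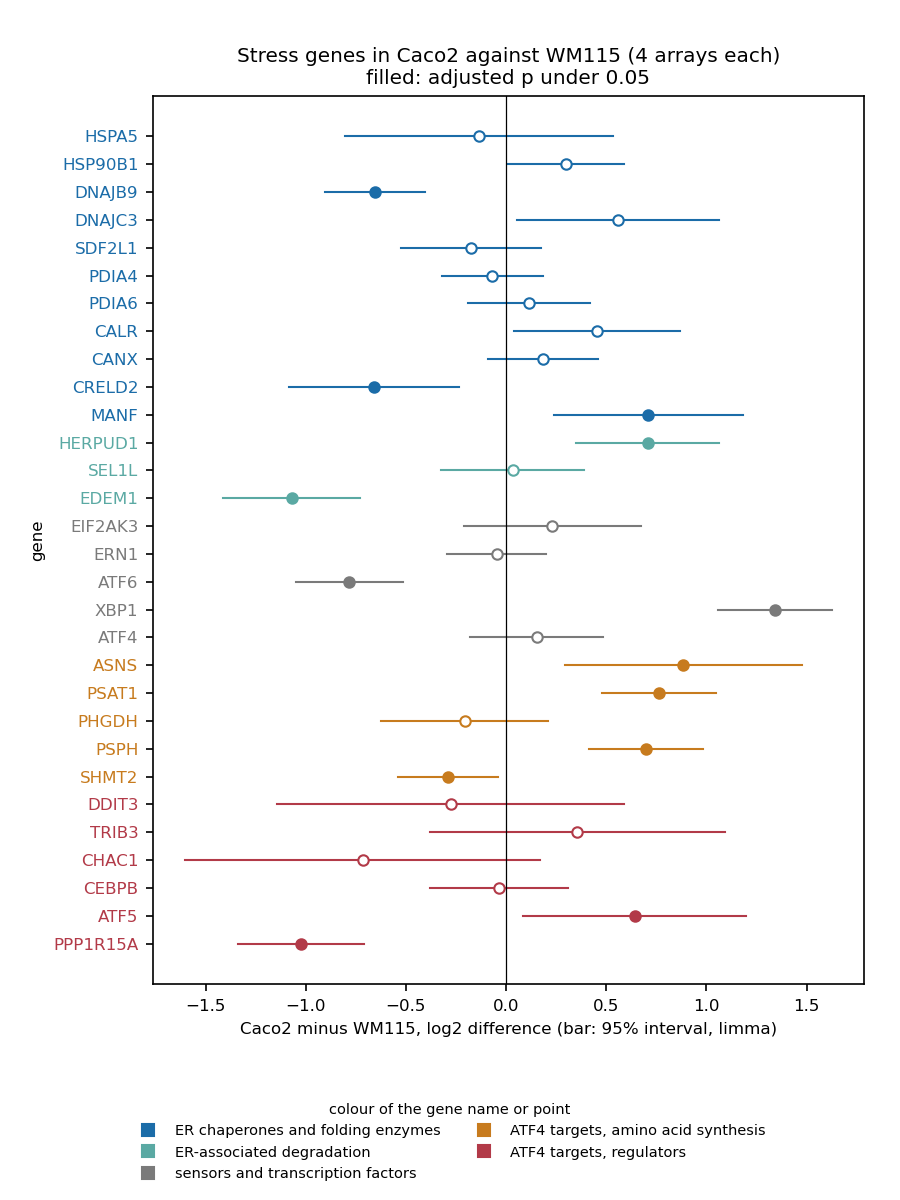
Caco2 minus WM115 for the 30 tested genes in log2 units (horizontal axis), with the 95% interval of the limma fit as the bar, 4 arrays per line and names coloured by role. Filled points are the 13 genes with an adjusted p under 0.05, with XBP1 (1.34) farthest right and EDEM1 (-1.07) farthest left.

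Genes of the same pathways outside the 33 were counted by the same rule, to be read against the 60.3% of all genes that passed. Of 50 tested genes of ER folding and quality control, 21 passed (42%), 11 higher and 10 lower in Caco2. HYOU1, an ER chaperone, was 3.37-fold higher (adjusted p = 0.000348), and CALU, an ER calcium-binding protein, was 3.16-fold lower (adjusted p = 4.05e-06). Of 38 further ATF4 and amino acid response genes, 22 passed (57.9%), 11 in each direction. The secreted factors STC2 and GDF15 lay at the extremes, 10.5-fold higher and 17.4-fold lower in Caco2 (adjusted p = 5.2e-06 and 9.18e-08), and SLC1A4, a neutral amino acid transporter, was 12.9-fold lower. Of 24 sensors, proteases and eIF2 genes, 8 were higher and 7 lower (62.5%). Of 21 cytosolic heat shock genes, 9 were higher and 3 lower (57.1%).

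AC133 high cells were then set against negative cells within each line, the comparison for which the cells were sorted. No member passed the test in Caco2, where 0.847% of genes passed, or in WM115, where 0.0178% did. None passed in the mean over the lines (0.107% of genes) or in the difference between the lines (0.0713%). At an unadjusted p under 0.05, limma counted 1 of the 30 members in Caco2, against 7.9% of all genes, and 0 in WM115, against 5.03%. The count was also 0 in the mean over the lines and in the difference between the lines, against 7.66% and 6.21% of all genes. No member passed an adjusted p of 0.05 in these 4 comparisons under any alternative tried.

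In Caco2 the differences ran from -0.52 for CALR to 0.425 for PSPH. CALR had 9.99 and 9.99 in AC133 high cells, against 10.61 and 10.41 in negative cells. The groups did not overlap, but the 95% interval of the difference, -1.10 to 0.07 log2 units, held 0 (adjusted p = 0.727). PSPH had 9.51 and 9.43 in high cells, against 8.88 and 9.21 in negative cells, with a 95% interval of 0.02 to 0.83 (unadjusted p = 0.0416, adjusted p = 0.616).

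The 95% intervals excluded a 2-fold difference in either direction for 26 of the 30 genes in Caco2, all except CALR, DDIT3, TRIB3 and CHAC1. For dim genes such as ERN1, SEL1L and DNAJC3 the offset shrinks differences, so their intervals bound the true difference less well. The chaperones had a median difference of -0.09 log2 units and the ATF4 targets of 0.03, against -0.005 over all genes. By sort, the chaperone medians were -0.13 in sort 2 and 0.01 in sort 1. Over the 30 genes, 9 were higher in both sorts, 9 were lower in both and 12 had opposite signs, against 58% of all genes with 1 sign in both sorts.

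In WM115 the differences ran from -0.60 for ASNS to 0.28 for CHAC1. ASNS had 9.48 and 8.24 in AC133 high cells, against 9.58 and 9.34 in negative cells, so that its difference came mainly from sort 2 (-1.10) and little from sort 1 (-0.10). CHAC1 had 6.61 and 4.81 in high cells, against 5.99 and 4.87 in negative cells, and its groups overlapped. TRIB3 had 9.70 and 8.16 in high cells, against 9.56 and 8.78 in negative cells, with opposite signs in the sorts.

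The intervals excluded a 2-fold difference for 25 of the 30 genes in WM115, all except HSPA5, ASNS, DDIT3, TRIB3 and CHAC1. The same limit holds for the dim genes. The chaperone median was 0.04 log2 units and the ATF4 target median -0.12, against 0.01 over all genes. The 5 amino acid synthesis genes were all at negative values, -0.60 to -0.04, and none passed the test. Without the negative array of sort 2 the medians over the genes tested with all arrays were 0.19 and -0.27, and 6 of the 30 genes changed sign. HSPA5 was then at 0.41 (-0.23 with the array), DDIT3 at -0.59 (0.21 with it), CHAC1 at -0.27, TRIB3 at -0.64 and ASNS at -0.72. In WM115 5 genes were higher in both sorts, 10 were lower in both and 15 had opposite signs, against 48.1% of all genes with 1 sign.

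The median half-width of the 95% intervals, which are not adjusted for many tests, was 0.49 log2 units within a line. Differences smaller than that were often not detectable with 2 arrays per group. Calls used the adjusted p, so larger differences could also go uncalled. An example is the related ATF4 target GADD45A in Caco2, at -0.72 (limma adjusted p = 0.178). With 2 arrays in each group the lowest p of an exact permutation test is 0.333, and the tests rest on the spread shared over the 4 groups. The difference between the lines in the AC133 response was largest for ASNS (0.63 log2 units, Caco2 minus WM115), with an adjusted p no lower than 0.853 for any member. When the array that stood apart was left out, 7 of the 30 genes changed sign in this difference and 7 in the mean over the lines. ASNS was then at 0.75 and TRIB3, at 0.81, was the largest.

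**Figure D3:**
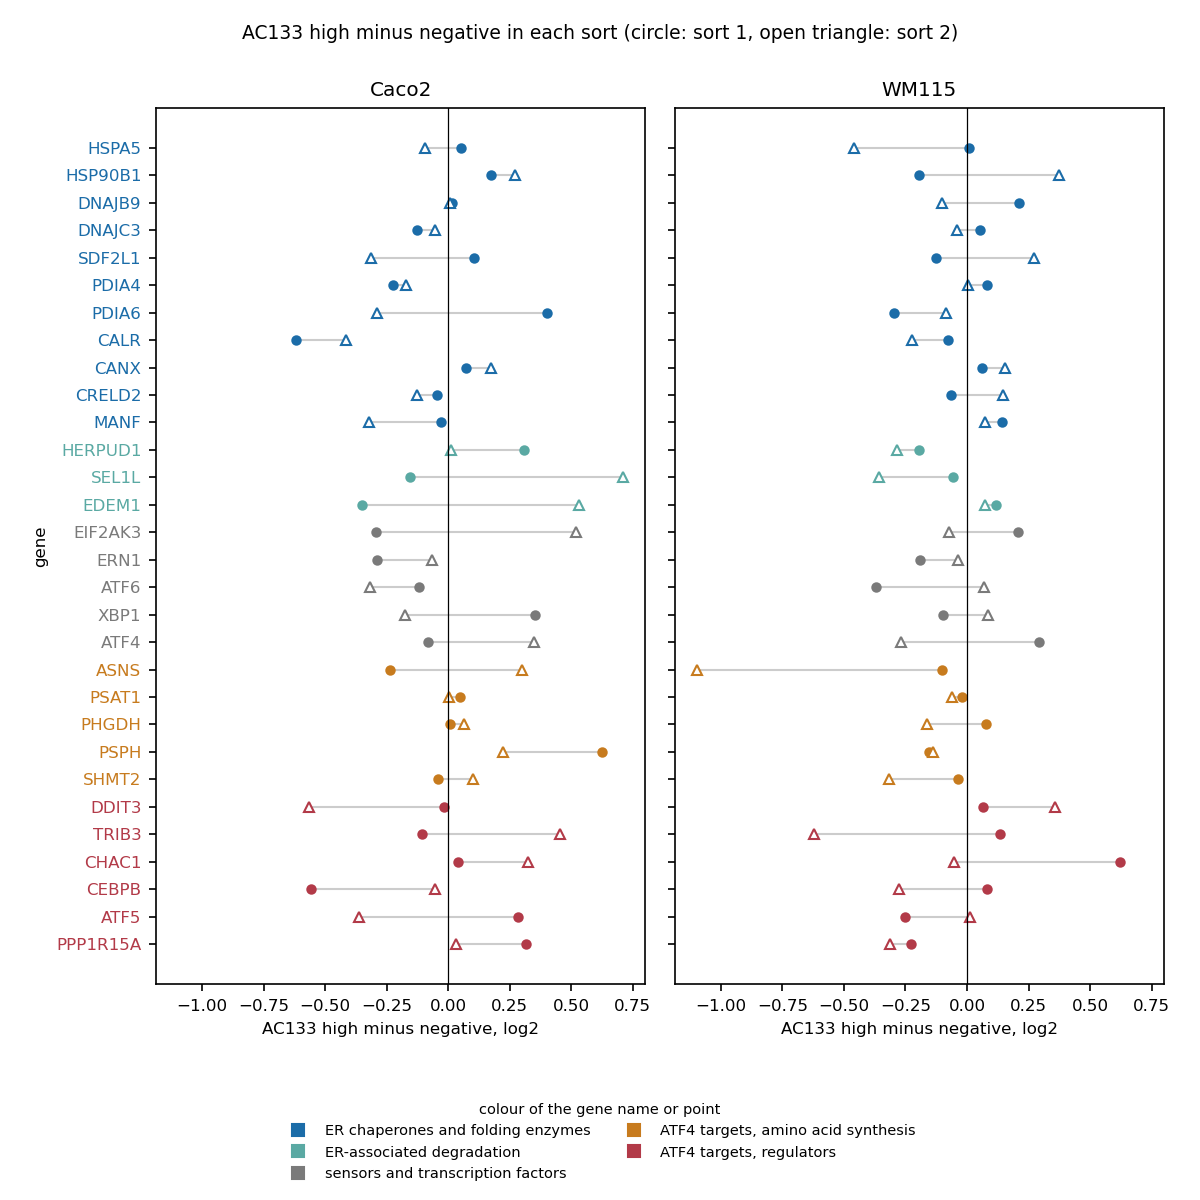
AC133 high minus negative in log2 units (horizontal axis) for the 30 tested genes in Caco2 (left) and WM115 (right), with sort 1 as circles, sort 2 as open triangles and a line joining the sorts of a gene. Most genes sit within 0.5 of 0, the sorts often fall on opposite sides of 0, and ASNS in WM115 sort 2 (-1.10) is the value farthest from 0.

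The sorts of a line were compared after the values of WM115 had been seen, so what follows describes these 4 arrays. In WM115 most chaperones were above in sort 2 and most ATF4 targets below, in AC133 high and in negative cells. HSP90B1, DNAJB9, PDIA6 and SHMT2 had opposite signs in high and negative cells, and ATF5 was above in both. Sort 2 lay above sort 1 on both arrays for 8 of 11 chaperones and below for 0 (72.7%, against 18.7% of all genes above). It lay below sort 1 for 9 of 11 ATF4 targets (81.8%, against 20.2% of all genes below). No probe passed the adjusted test between the WM115 sorts in limma (0 of 13844), and at an unadjusted p under 0.05 there were 12 of the 30 members and 11.8% of all genes. The lowest adjusted p among the members was 0.103, for DDIT3. Culture, staining, sorting and RNA extraction of a sort cannot be told apart, and the AC133 high and negative cells of a sort are not separate cultures by the labels. The p-values and intervals between sorts therefore rest on how far high and negative cells disagree, and not on repeated sorts.

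HSPA5 had 8.61 in high and 9.07 in negative cells of sort 2, against 7.80 and 7.80 in sort 1, a difference of 1.05 log2 units (95% interval 0.63 to 1.46, unadjusted p = 0.000848, adjusted p = 0.138). DNAJC3 had 5.69 and 5.73 in sort 2, against 4.95 and 4.90 in sort 1, and MANF had 11.06 and 10.99, against 10.37 and 10.23. Both lay 0.73 to 0.79 log2 units apart, and their sorts were far from overlapping.

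CRELD2 had 10.35 and 10.20 in sort 2, against 9.62 and 9.68 in sort 1. CALR had 9.99 and 10.21 in sort 2, against 9.46 and 9.53 in sort 1. SDF2L1, PDIA4 and CANX were also above in sort 2, by 0.38, 0.18 and 0.23 log2 units. The sorts overlapped for HSP90B1, PDIA6 and DNAJB9. Of the genes with the ER stress response element shown above, HSPA5, CALR, CANX and CRELD2 had sort 2 above sort 1, and HSP90B1, PDIA6 and XBP1 did not. Of the tested chaperones without an exact match in the window, DNAJC3, SDF2L1, PDIA4 and MANF were above in sort 2, and DNAJB9 overlapped. XBP1 had 8.68 and 8.59 in sort 2, against 8.56 and 8.65 in sort 1.

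DDIT3 had 7.07 in high and 6.72 in negative cells of sort 2, against 8.38 and 8.32 in sort 1, a difference of -1.46 log2 units (95% interval -1.92 to -0.999, unadjusted p = 0.000234, adjusted p = 0.103). CHAC1 had 4.81 and 4.87 in sort 2, against 6.61 and 5.99 in sort 1, a difference of -1.46 (adjusted p = 0.107). Its sort 2 intensities of 53.1 and 50.8 units lay close to the negative controls, where the offset makes differences too small. The CHAC1 promoter window holds the C/EBP-ATF core, and those of DDIT3 and TRIB3 hold no exact match. Sites with other letters or outside the window were not searched. TRIB3 had 8.16 and 8.78 in sort 2, against 9.70 and 9.56 in sort 1, a difference of -1.16 (adjusted p = 0.196). For DDIT3 and CHAC1 the sort 1 values were above every Caco2 array, while for TRIB3 the sort 2 values were below every Caco2 array. Without the negative array of sort 2 these differences were -1.31 for DDIT3, -1.78 for CHAC1 and -1.54 for TRIB3, and that of HSPA5 was 0.81.

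ASNS had 8.24 and 9.34 in sort 2, against 9.48 and 9.58 in sort 1, and the high array of sort 2 carried most of its difference of -0.74, which was -1.24 without the negative array of that sort. PHGDH had 10.97 and 11.13 in sort 2, against 11.70 and 11.62 in sort 1, a difference of -0.61 (adjusted p = 0.252). PSAT1, PSPH, CEBPB and PPP1R15A were below by 0.21 to 0.37 log2 units without overlap, and SHMT2 overlapped.

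ATF5 was the exception, with 8.14 and 8.13 in sort 2, against 7.17 and 7.42 in sort 1, a difference of 0.84 (adjusted p = 0.245). HERPUD1, which also holds the C/EBP-ATF core, had 8.39 and 8.68 in sort 2, against 8.84 and 9.03 in sort 1. The dimmer ATF4 probe had 7.04 and 6.51 in sort 2, against 7.50 and 8.08 in sort 1, while the brighter probe overlapped (12.13 and 12.39, against 12.65 and 12.36). SESN2, not tested, was detected on the arrays of sort 1 only, in both lines.

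Within the AC133 high pair alone, which leaves out the negative array of sort 2 that stood apart, the median of sort 2 minus sort 1 was 0.53 log2 units for the chaperones and -0.52 for the ATF4 targets. Within the negative pair it was 0.22 and -0.26. From the fit without that array the medians over the genes tested with all arrays were 0.53 and -0.52, against 0.38 and -0.37 with it. Of the 30 genes, 3 (SEL1L, EIF2AK3 and PDIA6) changed sign. The median over all genes was -0.002. In Caco2 0 members passed between the sorts, against 0.268% of genes, and the medians were 0.06 for the chaperones and -0.06 for the ATF4 targets, and HSPA5 was at 0.33 and DDIT3 at -0.06. Whether the difference between sorts is itself different in the lines was not tested. The summed intensity of the melanocyte markers ran over the 4 WM115 arrays from 13960 to 23440 units, with 6 to 7 of the 7 on the array detected. Among them TYR, named after its values were seen, had 10.70 and 10.475 log2 units in sort 2, against 11.59 and 11.62 in sort 1. PMEL and MITF were also below in sort 2 on both arrays, while MLANA, SOX10, TYRP1 and S100B overlapped between the sorts. The part of these markers in the difference between sorts was not tested.

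**Figure D4:**
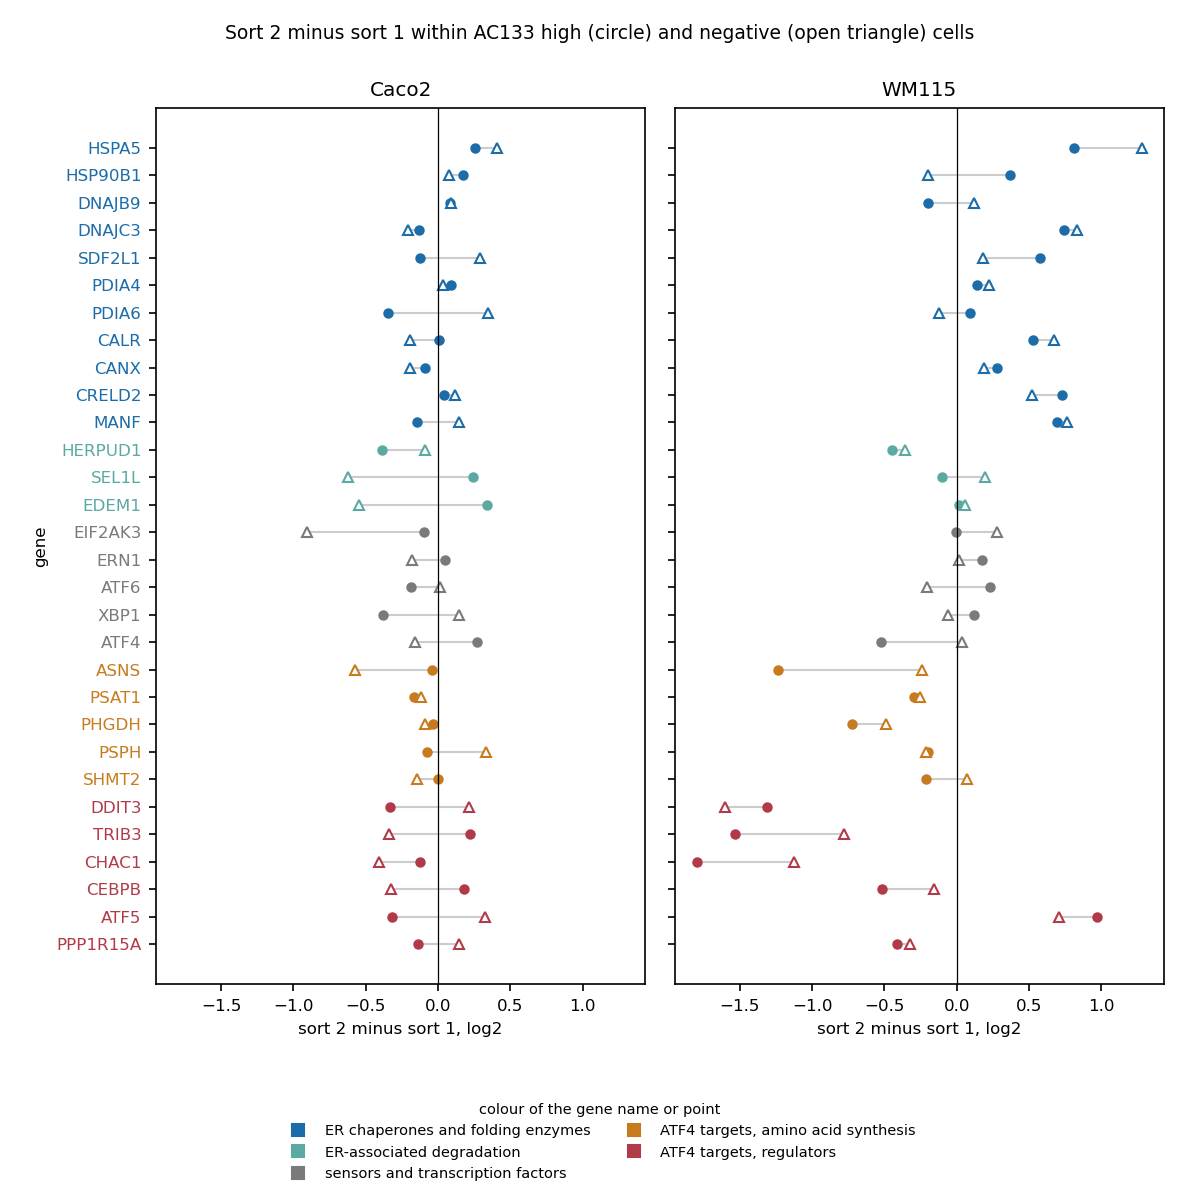
Sort 2 minus sort 1 in log2 units (horizontal axis) for the 30 tested genes in Caco2 (left) and WM115 (right), within AC133 high cells as circles and within negative cells as open triangles. In WM115 most chaperones are right of 0 and most ATF4 targets left of it in both AC133 groups, with HSPA5 at 1.05 and CHAC1 at -1.46 on average, and in Caco2 the members lie on both sides of 0.

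Related genes outside the 33 were counted in the same way in WM115, and the lists were not tested against each other. Of 50 ER folding and quality control genes, 23 had sort 2 above sort 1 on both arrays (46%) and 4 below, with a median of 0.23 log2 units. DNAJB11, an HSPA5 co-chaperone, was at 0.70 and SEC61A1, a channel subunit for protein entry into the ER, at 0.59, while the oxidase ERO1A was at -0.39. Of 38 ATF4 and amino acid response genes, 15 were below (39.5%) and 6 above, with a median of -0.16. DDIT4, an inhibitor of mTORC1 signalling, had 8.51 and 8.98 in sort 2, against 10.38 and 10.29 in sort 1 (adjusted p = 0.103). CTH, which makes cysteine, was at -1.19 and KLHL24 at -1.21, while the transporter SLC7A5 was at 0.72. Of 24 sensors, proteases and eIF2 genes, 6 were above and 6 below. Of 21 cytosolic heat shock genes, 10 were above (47.6%) and 1 below, with HSPA8 at 0.63. HSPA1A at 1.21 and HSPA1B at 0.91 are near-identical genes whose probes may share signal.

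**Figure D5:**
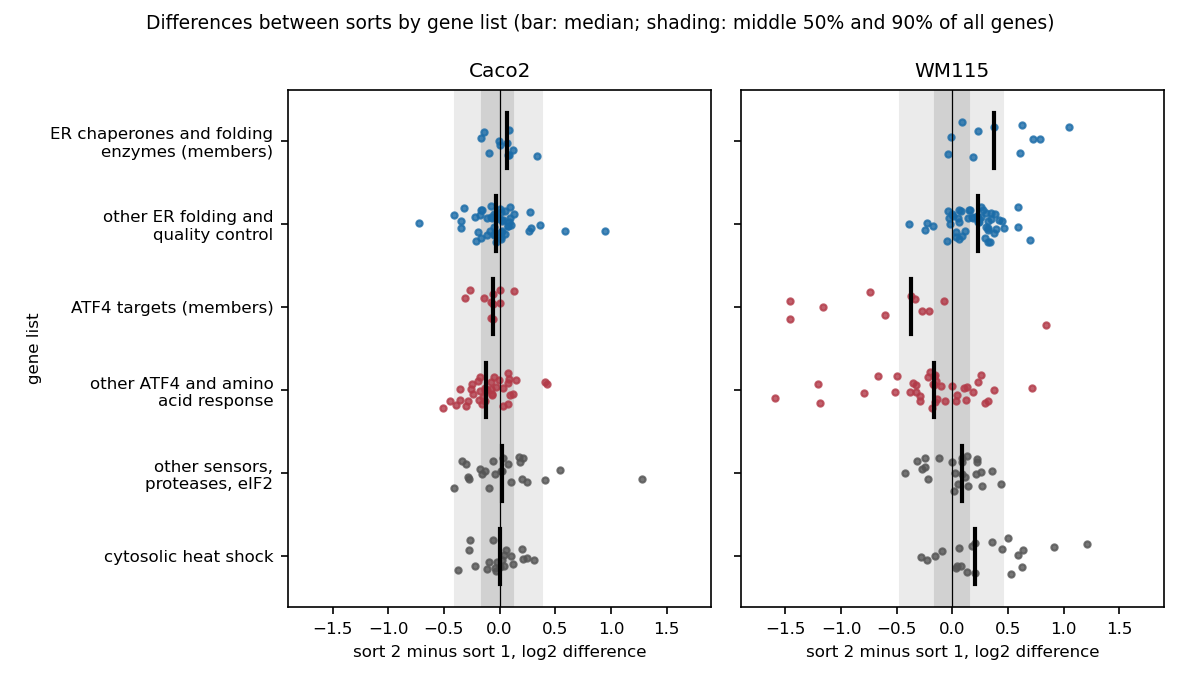
Sort 2 minus sort 1 in log2 units (horizontal axis) in Caco2 (left) and WM115 (right) for 6 gene lists (rows), 1 point per gene, with the list median as a black bar and the middle 50% and 90% of all genes as dark and light shading. In WM115 the chaperone median is 0.38 and the ATF4 target median -0.37, and in Caco2 both lie within 0.1 of 0.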

How the data were processed

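RNA of 8 sorted samples was measured on Illumina HumanRef-8 arrays of version 2. The deposited intensity per probe is a mean over beads from BeadStudio 3, per the labels, with no sign of normalization between arrays. The deposited detection p-value ranks a probe against the negative controls in steps of 1 in 708, and per the file headers the files also give bead counts and bead standard errors. The authors' joint table holds quantile-normalized intensity and was an alternative. No genome build is named.

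Intensities were background corrected with normexp in limma 3.58.1 (R 4.3.3, offset 16), quantile normalized and taken to log2. Probes with detection p under 0.05 on both arrays of a group were tested (13844 probes, 11214 genes). A limma model of the 4 group means over 8 arrays gave two-sided p-values, adjusted by Benjamini-Hochberg over all probes, with a threshold of 0.05 (4 residual and 4.35 prior degrees of freedom). The model was tested on simulated data. A gene's probe was its brightest tested probe. The sorts were compared in a model with sort within line. That comparison was added after seeing the data. The p-values between lines and AC133 groups measure the spread between sorted samples, which the labels call biological duplicates. Those between sorts measure only how far the high and negative cells of a sort disagree, with no repeat of a sort.

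The members and lists were chosen with earlier results of these data known. Named genes were all members and, from other lists, up to 5 per direction with the smallest p. The numbered sorts pair high and negative cells of a line by the labels, and deviations of paired arrays correlated at 0.281 in Caco2 and 0.177 in WM115. Alternatives changed background correction, normalization, filter, block, spread and array set.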

Additional observations from a re-analysis of the deposited data

How the results depend on the processing

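Between the lines, 6 of the 13 called members stayed past the threshold in all 19 alternatives (DNAJB9, EDEM1, ATF6, XBP1, PSAT1 and PPP1R15A), and all 13 kept their direction. The count of called members was 6 with the 4 AC133 negative arrays alone, 15 with the replicate block and 9 to 17 with 1 array left out. The fits with fewer arrays have fewer residual degrees of freedom. In all AC133 and sort comparisons the count of called members was 0 in every alternative run. The replicate block, sort within line, changed the calls of DNAJC3, CALR, CHAC1 and the dimmer ATF4 probe, which passed with it, and of SHMT2, which did not. It takes the spread between the sorts of a line out of the error, so its p-values between lines can be too small. It moved the count of probes between AC133 groups of Caco2 to 56 from the reported 107, in the mean over lines to 8 (reported 13) and in the difference between lines to 4 (reported 9), and changed no other call of a member.

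Counts of called probes over the whole array moved more than those of members, and the cause was not tested. For AC133 in Caco2 (reported 107) they were 41 with median scaling, 1 with probes detected on all 8 arrays and 55 with the 4 Caco2 arrays alone, and 8 to 79 with 1 array left out, the lowest without the high array of sort 2. For AC133 in WM115 (reported 3) they were 1 with probes detected on all 8 arrays and 3 to 301 with 1 array left out, the highest without the negative array of sort 1. For the mean over lines (reported 13) they were 6 with an offset of 50, 1 with probes detected on all 8 arrays, 25 with an intensity trend and 3 to 209 with 1 array left out. For the difference between lines (reported 9) the same settings gave 3, 0, 21 and 0 to 181, and no filter gave 4. Between Caco2 sorts (reported 37) they were 0 with median scaling, 0 with no filter, 88 with the 4 Caco2 arrays alone and 0 with any array left out. Between WM115 sorts (reported 0) they were 11 without background correction, 5 with median scaling, 13 with the authors' table, 6 with an intensity trend and 0 to 122 with 1 array left out, the highest without the high array of sort 1.

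List medians are in log2 units, chaperones first and ATF4 targets next. Where a left-out array leaves 1 array in a group, the filter asks for detection on that array alone. SESN2 or NUPR1 could then enter the ATF4 medians and the counts of members, so these ranges do not all cover the same genes. With 1 array left out, AC133 in Caco2 gave -0.144 to 0.026 and -0.029 to 0.091, in WM115 -0.238 to 0.248 and -0.41 to 0.135, in the mean over lines -0.159 to 0.129 and -0.188 to 0.082, and in the difference between lines -0.352 to 0.155 and -0.187 to 0.445. The chaperone median of AC133 in WM115, reported as 0.043, was 0.04 with an offset of 50, 0.093 with median scaling and 0.035 with the authors' table. Between sorts, leaving out 1 array gave 0.222 to 0.531 and -0.516 to -0.258 in WM115, and 0.008 to 0.089 and -0.133 to -0.061 in Caco2. Median scaling moved the Caco2 sort medians to -0.391 and -0.474, when the median of all genes moved to -0.318, so that relative to it they were -0.073 and -0.156.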

Other observations

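EIF2AK4 (GCN2), the kinase that senses uncharged transfer RNA and leads to ATF4, was at 1.28 log2 units in sort 2 minus sort 1 of Caco2, with a limma adjusted p of 0.0494. It was the only gene of the listed pathways outside the 33 to pass in either comparison of sorts, and in WM115 it was at 0.22 (adjusted p = 0.664). With median scaling, or with no filter on dim probes, no probe passed between the Caco2 sorts. The p-values between sorts rest on how far high and negative cells disagree, with no repeat of a sort. SSR3, a subunit of the translocon-associated complex, was at 0.94 in Caco2 (adjusted p = 0.158).

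GADD45A, a growth arrest gene among ATF4 targets, had 7.83 and 8.08 in Caco2 AC133 high cells, against 8.70 and 8.63 in negative cells, a difference of -0.72 log2 units with an adjusted p of 0.178. Of the genes on the related lists, ERO1B held the ER stress response element in its RefSeq window.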
